A study of Mus musculus with 8 samples.

Results

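The nuclear receptor FXR, its partner in repression SHP and the carriers that move bile acids across the hepatocyte membrane were followed in newborn mouse liver, as 10 genes chosen by name. They are Nr1h4 (FXR), Nr0b2 (SHP), Abcb11 and Abcc2 on the canalicular side, Slc51a, Slc51b, Abcc3 and Abcc4 as basolateral exporters, and Slc10a1 and Slco1b2 as uptake carriers. All 15 probe sets annotated to exactly 1 of these genes were taken, out of 45037 probe sets and 18193 genes. Total RNA was measured on Affymetrix arrays in livers of mice aged 2 days, 4 with the genotype Mfp2 -/- and 4 wild type, with 1 array per mouse. Mfp2 is the peroxisomal multifunctional protein 2, encoded by Hsd17b4. The sources used here give no strain or sex and do not say in which cells the gene was inactivated. The comparison is between the livers of both genotypes.

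FXR is a nuclear receptor switched on by bile acids. It binds DNA with a retinoid X receptor, classically at inverted repeats of AGGTCA separated by a single base, and raises transcription of Nr0b2, Abcb11, Slc51a and Slc51b. SHP, which has no DNA-binding domain, represses bile acid synthesis through Cyp7a1 and is known to dampen Slc10a1. Hepatocytes take bile acids up from portal blood through the sodium-dependent carrier NTCP (Slc10a1) and the organic anion carrier Slco1b2, and pump them into bile through the bile salt export pump (Abcb11) and MRP2 (Abcc2). The dimer of Slc51a and Slc51b and the pumps MRP3 (Abcc3) and MRP4 (Abcc4) can send bile acids back to blood. Mfp2 shortens the side chain of bile acid precursors in peroxisomes.

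RefSeq promoter windows (GRCm38.p6, from 250 bases before to 50 bases after each start site) were matched by symbol for 9 of the 10 genes, all but Abcc3, as 11 windows. They were searched on both strands for the FXR inverted repeat, AGGTCA followed by 1 base of any kind (N) and TGACCT, with at most 2 mismatches outside the N, and for a single AGGTCA, which overlaps the inverted repeat. The 4 stretches below are the 250 bases before the start site. Those of Abcb11, Slc51b and Nr0b2 are shown because these genes were higher in every knockout liver, and that of Slco1b2 as an uptake carrier that holds the repeat without such a difference. Capitals mark matches to either motif, and each is written 5′ to 3′ on the strand of its gene.
Abcb11 (chr2:69342617-69342866, minus strand): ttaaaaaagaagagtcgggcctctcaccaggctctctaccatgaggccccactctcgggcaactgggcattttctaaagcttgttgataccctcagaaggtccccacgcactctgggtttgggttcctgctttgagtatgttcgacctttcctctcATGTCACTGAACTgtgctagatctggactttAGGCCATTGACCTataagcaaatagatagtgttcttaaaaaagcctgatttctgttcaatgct
Slco1b2 (chr6:141629268-141629517, plus strand): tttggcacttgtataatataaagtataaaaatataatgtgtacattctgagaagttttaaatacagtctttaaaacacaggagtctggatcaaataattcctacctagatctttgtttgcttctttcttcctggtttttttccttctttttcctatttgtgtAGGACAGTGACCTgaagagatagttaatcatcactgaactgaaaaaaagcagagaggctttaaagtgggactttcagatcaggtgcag
Slc51b (chr9:65422774-65423023, minus strand): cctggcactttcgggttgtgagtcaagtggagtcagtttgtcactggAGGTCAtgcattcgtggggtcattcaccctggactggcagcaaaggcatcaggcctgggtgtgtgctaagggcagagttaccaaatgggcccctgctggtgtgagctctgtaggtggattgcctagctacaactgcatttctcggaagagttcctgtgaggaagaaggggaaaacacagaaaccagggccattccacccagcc
Nr0b2 (chr4:133553126-133553375, plus strand): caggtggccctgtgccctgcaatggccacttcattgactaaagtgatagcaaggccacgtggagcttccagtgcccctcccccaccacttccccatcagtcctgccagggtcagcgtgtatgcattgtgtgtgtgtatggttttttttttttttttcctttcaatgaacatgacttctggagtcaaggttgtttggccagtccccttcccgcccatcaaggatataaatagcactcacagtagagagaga
The stretch of Abcb11 holds AGGCCATTGACCT, with 1 mismatch, at -63 to -51 from the start site, and ATGTCACTGAACT, with 2 mismatches, at -94 to -82. That of Slco1b2 holds AGGACAGTGACCT, with 1 mismatch, at -88 to -76. Of the 9 genes searched, these were the 2 with such a match. Among all 32851 windows of the same length, 27 (0.0822%) held a match with at most 1 mismatch and 374 (1.14%) one with at most 2. A single AGGTCA was found in 7 members, Slc51b among them, and in 16.3% of all windows. No match was found for Nr0b2. A match describes letters in the window and is neither a binding site nor a cause.

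The targeted gene was low in each knockout liver. Hsd17b4 lay between 3.25 and 4.29 in the knockout and between 8.15 and 8.97 in wild type livers (log2 RMA values), a difference of -4.66 ± 0.25 (SE) with a limma adjusted p of 0.0001. Pairs of arrays correlated at 0.983 to 0.993 within a genotype and at 0.976 to 0.989 across genotypes. Xist was high in knockout 1, knockout 2 and wild type 3 and low in the other 5 livers, and the labels name no sex. With genotype as a term in limma, 229 probe sets differed when replicates 1 and 2 were set against replicates 3 and 4. Differences within each of these sets are therefore given for each of the 10 genes. Within replicates 1 and 2, Xist was 8.59 and 9.28 in the knockout and 2.83 and 4.19 in wild type livers. Genotype and the Xist difference cannot be told apart in that set. Within replicates 3 and 4 only wild type 3 was high. In the knockout livers the 2 sets also differ in Xist. RNA quality was read from the actin control probes, whose 3' end exceeded the 5' end by 0.576 to 0.862 log2 units in knockout and 0.518 to 0.667 in wild type arrays. In all, 343 of 45037 probe sets (0.762%) passed an adjusted p of 0.05.

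Of the 10 genes, Slc51b and Abcb11 rose in the knockout past the threshold, both of them exporters, and no gene of the set fell. Among all genes, 0.308% rose and 0.841% fell past the threshold, in limma with Benjamini-Hochberg adjustment over all probe sets. The 4 knockout values lay above all 4 wild type values in Slc51b, Abcb11 and Nr0b2, which held for 3.59% of all genes. Means were higher in the knockout for 8 of the 10 genes. The median difference was 0.39 on the log2 scale, against 0.01 over all genes. The 6 exporters had a median of 0.58 and the 2 uptake carriers one of 0.14. Levels are log2 RMA values throughout and differences are knockout minus wild type on that scale. Levels of different genes are not compared, since probe sets differ in brightness. Each sample is whole liver, in which fewer cells of a type and less RNA per cell cannot be told apart.

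**Figure D1:**
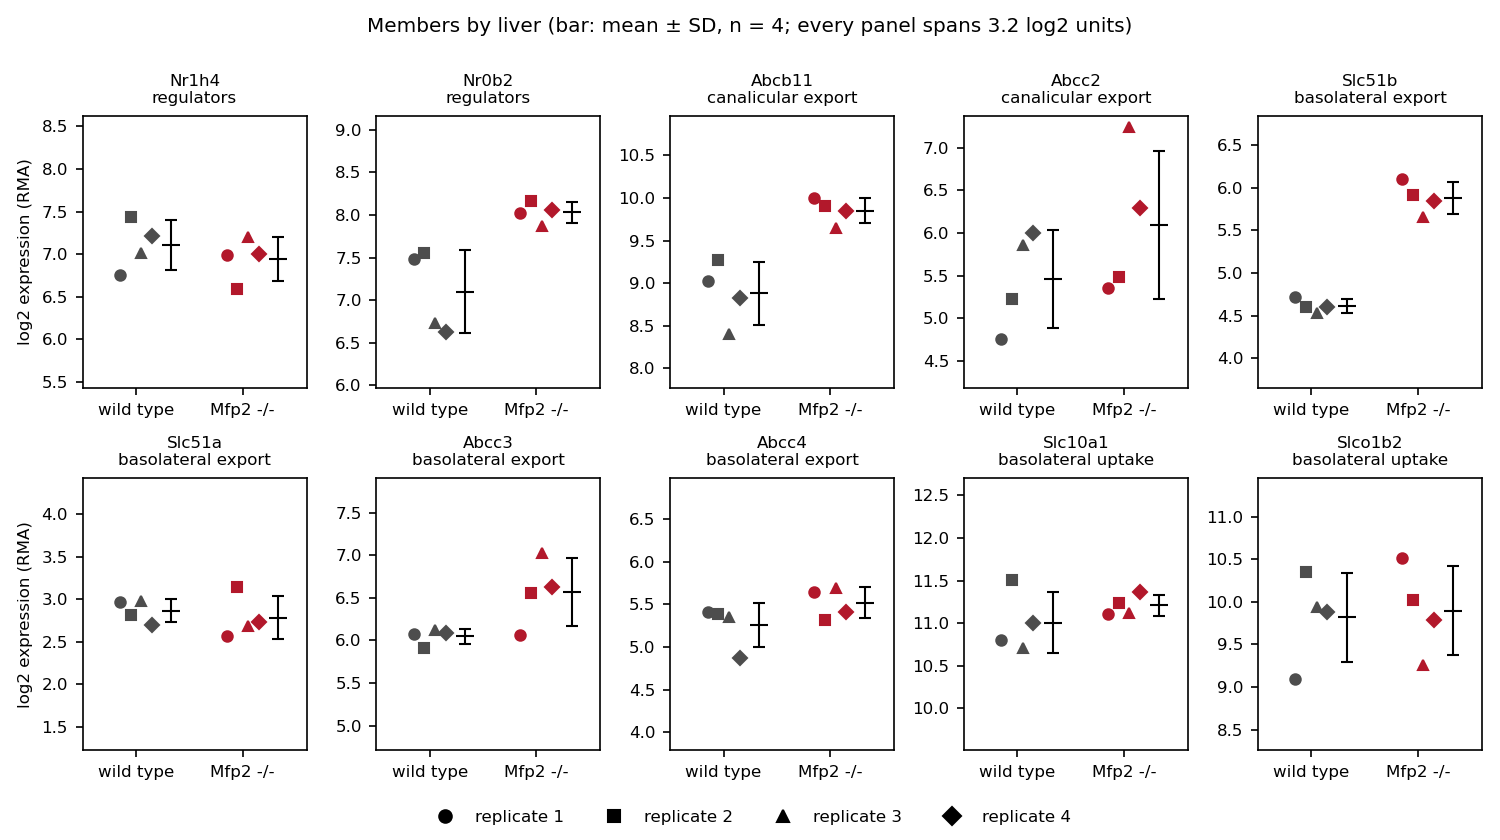
Log2 RMA value of each of the 10 genes (y axis) in the 4 wild type (grey) and 4 Mfp2 -/- livers (red), with symbols for replicate numbers and the mean ± SD beside them. All 4 knockout livers lie above all 4 wild type livers for Slc51b, Abcb11 and Nr0b2, and the groups overlap for the other 7 genes.

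Nr1h4, the receptor itself, showed no difference past the threshold. Its values were 6.99, 6.58, 7.20 and 7.0 in knockout livers 1 to 4 and 6.76, 7.44, 7.02 and 7.21 in wild type livers 1 to 4. The groups overlapped, with knockout 2 the lowest and wild type 2 the highest liver. The difference was -0.16 ± 0.17 (SE; limma adjusted p 0.791), and its 95% interval ran from -0.54 to 0.21, so a change to between 0.688-fold and 1.16-fold is within it. Replicates 1 and 2 taken alone differed by -0.31, and replicates 3 and 4 by -0.018, with overlap in both sets.

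Nr0b2, the FXR target that encodes SHP, was higher in each knockout liver but did not pass over all probe sets. It measured 8.03, 8.16, 7.87 and 8.06 in knockout livers 1 to 4 against 7.48, 7.56, 6.74 and 6.62 in wild type livers 1 to 4. The knockout livers lay close together, while wild type 3 and 4 lay well below wild type 1 and 2. The difference was 0.93 ± 0.21 (SE), or 1.90-fold with a 95% interval from 1.38 to 2.64, with a limma adjusted p of 0.0864. Within replicates 1 and 2 the difference was 0.58, and within replicates 3 and 4 it was 1.28. Nr0b2 passed in 4 of 19 alternatives: with these sets of arrays as a block (adjusted p 0.0321), with array weights (0.0271), within replicates 3 and 4 alone (0.0315) and without wild type 2 (0.0471). In the other 15 it did not pass. Leaving out each of the other 7 livers gave differences of 0.77 to 1.06 and adjusted p between 0.0752 and 0.258.

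Abcb11, the pump that moves bile salts into the canaliculus, rose 1.96-fold. Its values were 9.9995, 9.91, 9.65 and 9.85 in knockout livers 1 to 4 and 9.03, 9.27, 8.40 and 8.83 in wild type livers 1 to 4. The lowest knockout liver, knockout 3, lay above the highest wild type liver, wild type 2, and wild type 3 was lowest of all. The difference was 0.97 ± 0.17 (SE; 95% interval 0.58 to 1.36), with a limma adjusted p of 0.0441. That call is close to the threshold, and 12 alternatives lost it while 7 kept it. It was kept without wild type 2 (adjusted p 0.0354). It was lost on leaving out wild type 1 (0.0656), 3 (0.110) or 4 (0.145), or any knockout liver, namely knockout 1 (0.0856), 2 (0.0805), 3 (0.0877) or 4 (0.124). The difference itself stayed between 0.81 and 1.10 in these 8 fits and was 0.80 when replicates 1 and 2 were taken alone and 1.14 for replicates 3 and 4.

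Abcc2, which carries bilirubin conjugates and other organic anions into bile, varied most between livers. It measured 5.36, 5.48, 7.24 and 6.30 in knockout livers 1 to 4 and 4.76, 5.22, 5.86 and 5.996 in wild type livers 1 to 4. In both genotypes replicates 3 and 4 lay above replicates 1 and 2, and knockout 3 stood above all other livers. The groups overlapped over all 8 livers, while within each set of replicates the knockout livers were higher, by 0.43 in replicates 1 and 2 and by 0.84 in replicates 3 and 4. The difference over all livers was 0.63 ± 0.41 (SE; 95% interval -0.29 to 1.56), with a limma adjusted p of 0.628. Without knockout 3 it was 0.25.

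Slc51b encodes the beta chain of the dimeric carrier that releases bile acids to blood, and it rose 2.41-fold, the largest difference of the 10 genes. Its values were 6.10, 5.92, 5.65 and 5.85 in knockout livers 1 to 4 and 4.72, 4.60, 4.53 and 4.60 in wild type livers 1 to 4. Each group lay within 0.5 of a log2 unit, and nearly 1 unit separated the lowest knockout from the highest wild type liver. The difference was 1.27 ± 0.11 (SE; 95% interval 1.02 to 1.51), with a limma adjusted p of 0.00405. It passed without each of the 8 livers in turn, with adjusted p between 0.0067 and 0.0291, and measured 1.35 within replicates 1 and 2 and 1.18 within replicates 3 and 4.

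Slc51a, the subunit that Slc51b needs to form a working carrier, showed no such rise. It measured 2.57, 3.14, 2.68 and 2.74 in knockout livers 1 to 4 and 2.97, 2.81, 2.98 and 2.70 in wild type livers 1 to 4. All 8 values lie below the array medians of 3.68 to 3.73, so expression of Slc51a is not shown by this probe set and a change could be hidden. The difference was -0.08 ± 0.13 (SE; 95% interval -0.38 to 0.22; limma adjusted p 0.883). Replicates 1 and 2 differed by -0.036 and replicates 3 and 4 by -0.13.

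Abcc3, a basolateral pump for glucuronides and bile acids, was higher in 3 of the 4 knockout livers. Its values were 6.06, 6.56, 7.03 and 6.63 in knockout livers 1 to 4 and 6.07, 5.91, 6.12 and 6.08 in wild type livers 1 to 4. Wild type livers lay within a narrow band and knockout 1 lay inside it, while knockout 3 was highest, as it was for Abcc2. The difference was 0.53 ± 0.18 (SE; 95% interval 0.13 to 0.92), with a limma adjusted p of 0.258. Replicates 1 and 2 taken alone differed by 0.32, and replicates 3 and 4 by 0.73. Leaving out single livers gave 0.37 (without knockout 3) to 0.70 (without knockout 1), with adjusted p between 0.0721 and 0.460.

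Abcc4, a basolateral pump for bile acids and nucleotides, overlapped between the groups. It measured 5.65, 5.32, 5.69 and 5.41 in knockout livers 1 to 4 and 5.41, 5.39, 5.35 and 4.87 in wild type livers 1 to 4. Wild type 4 was the lowest liver by a clear margin. The difference was 0.26 ± 0.14 (SE; 95% interval -0.06 to 0.58; limma adjusted p 0.549), and it was 0.13 without wild type 4. Replicates 1 and 2 differed by 0.083 and replicates 3 and 4 by 0.44.

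Both uptake carriers overlapped between the genotypes. Slc10a1, the sodium-dependent carrier NTCP, measured 11.11, 11.23, 11.12 and 11.37 in knockout livers 1 to 4 and 10.80, 11.51, 10.71 and 11.01 in wild type livers 1 to 4. The knockout values fell inside the wild type range, whose ends were wild type 3 and wild type 2. The difference was 0.20 ± 0.17 (SE; limma adjusted p 0.722), and the 95% interval allows a change to between 0.891-fold and 1.49-fold. Within replicates 1 and 2 the difference was 0.015 and the livers overlapped, while within replicates 3 and 4 it was 0.39, with both knockout livers above both wild type livers. A second probe set of Slc10a1 differed by 0.11 ± 0.14.

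Slco1b2, the liver-specific organic anion carrier, measured 10.51, 10.02, 9.26 and 9.79 in knockout livers 1 to 4 and 9.10, 10.35, 9.94 and 9.88 in wild type livers 1 to 4. Knockout 3 and wild type 1 were lowest, and the ranges nearly coincided. The difference was 0.08 ± 0.30 (SE; limma adjusted p 0.957), with an interval from 0.666-fold to 1.67-fold. Its sign turned between the sets of arrays, at 0.54 within replicates 1 and 2 and -0.39 within replicates 3 and 4. Of its 4 other probe sets, 2 had means of 9.65 and 8.80 and differed by 0.06 ± 0.27 and 0.02 ± 0.27. The remaining 2, with means of 3.66 and 2.84, lie near or below the array medians and are not shown to be above background. In both brighter ones wild type 1 was again the lowest liver. No uptake probe set had an unadjusted p under 0.05 in limma, where 14.6% of all genes did.

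**Figure D2:**
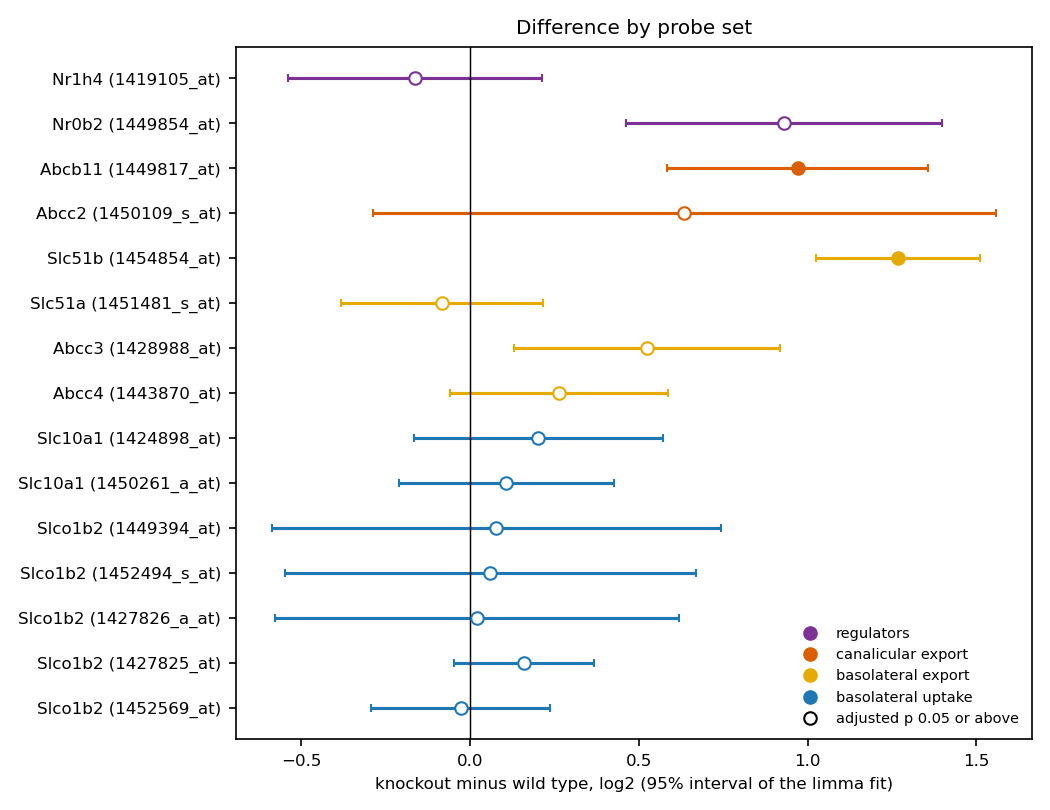
Difference of knockout from wild type livers in log2 units (x axis) for each of the 15 probe sets, coloured by role, with the 95% interval of the limma fit (4 livers per genotype). The filled points, Abcb11 at 0.97 and Slc51b at 1.27, passed an adjusted p of 0.05, and the intervals of all 7 uptake probe sets include 0.

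To set export against uptake within each liver, the mean of Slc10a1 and Slco1b2 was subtracted from every exporter. With the wild type mean placed at 0, Slc51b lay at 1.10, 1.09, 1.26 and 1.07 in knockout livers 1 to 4 and at 0.57, -0.53, 0.0042 and -0.041 in wild type livers 1 to 4. Abcb11 lay at 0.72, 0.81, 0.99 and 0.80 in the knockout and at 0.61, -0.13, -0.40 and -0.083 in wild type livers. In both genes every knockout liver lay above every wild type liver, and wild type 1, with its low Slco1b2, came nearest. The share of all genes without overlap on this scale was not computed.

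The difference relative to uptake was 1.13 on the log2 scale for Slc51b (2.19-fold) and 0.83 for Abcb11 (1.78-fold). Each had a two-sided exact permutation p of 0.0286, the smallest that 4 against 4 livers can give. That p restates the lack of overlap. The other 4 exporters overlapped: Abcc2 differed by 0.49, Abcc3 by 0.39, Abcc4 by 0.12 and Slc51a by -0.22, with exact permutation p between 0.371 and 0.600. Against Slc10a1 alone the exact permutation p was 0.0286 for both Slc51b and Abcb11. Against Slco1b2 alone it was 0.0571 and 0.0857. For the 6 exporters 18 such tests were computed, and further ones for the 2 regulators. Nr0b2 differed by 0.79 relative to the pair, with an exact permutation p of 0.0857. That p was 0.0286 against Slc10a1 alone and 0.114 against Slco1b2 alone. Nr1h4 differed by -0.30 relative to the pair, with exact permutation p of 0.229, and 0.114 and 0.571 against the single carriers. None of these p-values is adjusted.

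The same differences were also fitted with limma for every probe set, adjusted over all of them, where 1 of 6 exporters passed and 0.181% of all genes were called higher. Slc51b had an adjusted p of 0.0286 and Abcb11 one of 0.314. The standard error was 0.296 for each member, since 1 shared reference is subtracted everywhere. The fit treats the spread of that reference as well known, so its adjusted p-values may be too small. The call on Slc51b was kept without wild type 1 (adjusted p 0.00113) or wild type 2 (0.0211). It was lost on leaving out wild type 3 (0.228) or 4 (0.211), or knockout 1 (0.0908), 2 (0.122), 3 (0.0596) or 4 (0.188). Abcb11 passed without wild type 1 (0.0371).

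**Figure D3:**
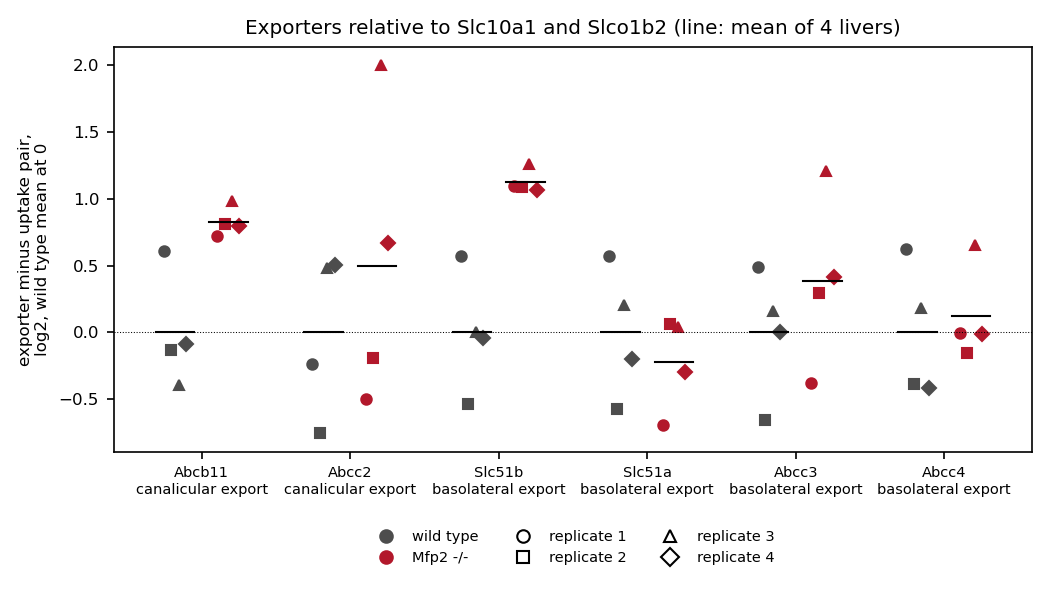
Each exporter minus the mean of Slc10a1 and Slco1b2 in the same liver, on the log2 scale with the wild type mean at 0 (y axis), for 4 wild type (grey) and 4 Mfp2 -/- livers (red). Lines are means of 4 livers, at 1.13 for Slc51b and 0.83 for Abcb11 in the knockout, where no knockout liver overlaps the wild type range.

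Newborn liver also holds blood-forming cells, and their markers were read in the same arrays. Of 8 measured erythroid markers, 7 were lower in every knockout liver than in every wild type liver, against 5.02% of all genes. None passed in limma over all probe sets, and 7 had an unadjusted p under 0.05, against 14.6% of all genes. The count past the threshold was 4 without knockout 2, 2 without wild type 2 and 0 without any other single liver. It was 7 with array weights, 4 with the replicate sets as a block, with the Y-linked mean or within replicates 3 and 4, 2 with the filter on low values, and 1 with trended and robust variance or relative to hepatocyte markers. It stayed at 0 with the replicate block, within replicates 1 and 2, after renewed quantile normalization and with median centring. Their mean level lay between 7.45 and 8.10 in knockout and between 8.32 and 8.51 in wild type livers, and Klf1, an erythroid transcription factor, differed by -0.91 ± 0.19 (SE; limma adjusted p 0.0636). The 8th, Hba-a1, has a probe set mean of 2.02, below the array medians. The part of these cells in the results was not tested. Of 10 hepatocyte markers 0 passed in limma and 1 had an unadjusted p under 0.05. Their median difference was 0.06 and their mean level lay between 12.25 and 12.38 in knockout and between 12.12 and 12.23 in wild type livers, and Apob differed most clearly, by 0.34 ± 0.13 (adjusted p 0.315). The ranges of that mean level did not overlap. These markers are very bright, with Alb at a mean of 13.50 where the highest value of all is 13.70. Differences between livers may therefore be compressed in this reference. Relative to the hepatocyte marker mean of each liver, Slc51b differed by 1.17 ± 0.13 (SE; limma adjusted p 0.0134), Abcb11 by 0.88 ± 0.18 (adjusted p 0.0502) and Nr0b2 by 0.84 ± 0.20 (adjusted p 0.0859). On that scale the median of all genes was -0.08, Slc10a1 was at 0.11 and Slco1b2 at -0.016.

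Bile duct cells express some of the same carriers, and their markers were low. Of 8 listed markers 5 were found by symbol, and 3 of these had means below the array medians. Their mean level lay between 3.40 and 3.81 in knockout and between 3.48 and 3.66 in wild type livers. Epcam, the one with the lowest p, differed by 0.33 ± 0.18 (SE; limma adjusted p 0.552) and was highest in knockout 3. The part of bile duct cells in the results was likewise not tested. With the mean of Y-linked genes as a covariate, Slc51b had a limma adjusted p of 0.00684 and Abcb11 one of 0.0391.

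Genes that work with FXR showed no call. Of 13 measured partners and upstream regulators, 0 passed in limma, with a median difference of 0.14. An unadjusted p under 0.05 was found for 3, with 2 higher and 1 lower, against 14.6% of all genes. Carm1, an arginine methyltransferase that acts as a coactivator, had the lowest p, at -0.39 ± 0.12 (SE; adjusted p 0.210), with all 4 knockout livers below all wild type livers. Rxra, the retinoid X receptor most abundant in liver, was named after its values were seen and had means of 7.50 ± 0.18 (SD, n = 4) and 7.50 ± 0.12.

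In the feedback on bile acid synthesis, 0 of 7 genes passed in limma. An unadjusted p under 0.05 was found for 3, with 1 higher and 2 lower, against 14.6% of all genes. Cyp27a1, which starts the alternative route of synthesis, had the lowest p, with mean levels of 8.62 ± 0.30 in the knockout and 7.70 ± 0.48 in the wild type group (SD, n = 4). Its difference was 0.92 ± 0.23 (SE; adjusted p 0.124) and the adjusted p was 0.0376 without wild type 2 and 0.137 to 0.335 without any other single liver. Array weights, and replicates 3 and 4 alone, each gave 0.0483, and replicates 1 and 2 alone gave 0.998. Of genes named after their values were seen, Cyp7a1, the rate-limiting enzyme, differed by -0.65 ± 0.19 (limma adjusted p 0.189) and Cyp8b1, the sterol 12-alpha-hydroxylase, by -0.95 ± 0.40 (adjusted p 0.386), while Slc10a1 differed by 0.20 as given above. None of these passed.

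Of 18 measured FXR targets outside transport, 1 rose past the threshold and 0 fell, against 0.308% and 0.841% of all genes. An unadjusted p under 0.05 in limma was found for 6, with 4 higher and 2 lower, against 14.6% of all genes. The median difference was 0.12. The list was not sorted by the direction in which FXR acts, so this median is no measure of FXR activity. The gene past the threshold was Slc27a5, which activates bile acids for conjugation. It lay at 10.07, 10.18, 10.004 and 9.79 in knockout livers 1 to 4 and at 9.34, 9.40, 9.20 and 8.999 in wild type livers 1 to 4. The groups did not overlap, and the difference was 0.78 ± 0.12 (SE; limma adjusted p 0.0340). The call was kept without wild type 1 (adjusted p 0.0478) or wild type 2 (0.0376). It was lost on leaving out wild type 3 (0.126) or 4 (0.104), or knockout 1 (0.0638), 2 (0.0504), 3 (0.0845) or 4 (0.0698). The list had 0 calls within replicates 1 and 2 alone, and 2 without wild type 2, with array weights or within replicates 3 and 4, where Slc27a5 itself had an adjusted p of 0.0691.

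Among other carriers, 0 of 10 genes listed under organic anion and cation uptake passed in limma. Not all of them are uptake carriers of organic anions, Slc27a2 and Slc47a1 among the exceptions. An unadjusted p under 0.05 was found for 3, against 14.6% of all genes. These were Slc22a7, which was lower, and Slc27a2 (0.37 ± 0.14) and Slc47a1 (0.29 ± 0.12), which were higher and are named after their values were seen. Slc22a7, an organic anion transporter, had the lowest p, at -1.11 ± 0.27 (SE; adjusted p 0.113). Its adjusted p was 0.0425 without wild type 2 and 0.0935 to 0.317 without any other single liver. It fell under 0.05 with array weights (0.0434) and for replicates 3 and 4 alone (0.0391), but not for replicates 1 and 2 alone (0.998). Its mean level was 4.41 ± 0.42 in the knockout and 5.53 ± 0.53 in the wild type group (SD, n = 4), and the groups overlapped. Of 12 genes listed under other canalicular and efflux pumps, 1 rose past the threshold and 0 fell, against 0.308% and 0.841% of all genes. The gene that rose was Abcb1a, a drug efflux pump, at 7.09 ± 0.18 (SD, n = 4) in the knockout against 4.58 ± 0.43. Its difference was 2.51 ± 0.20 (adjusted p 0.00273). The count past the threshold was 2 without wild type 2 and 0 within replicates 1 and 2 alone. An unadjusted p under 0.05 in limma was found for 3 of the 12, with 2 higher and 1 lower, against 14.6% of all genes. Of 13 genes of canalicular membrane trafficking 0 passed and 0 had an unadjusted p under 0.05. Tjp1, a tight junction protein, had the lowest p, at 0.26 ± 0.13 (adjusted p 0.481).

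**Figure D4:**
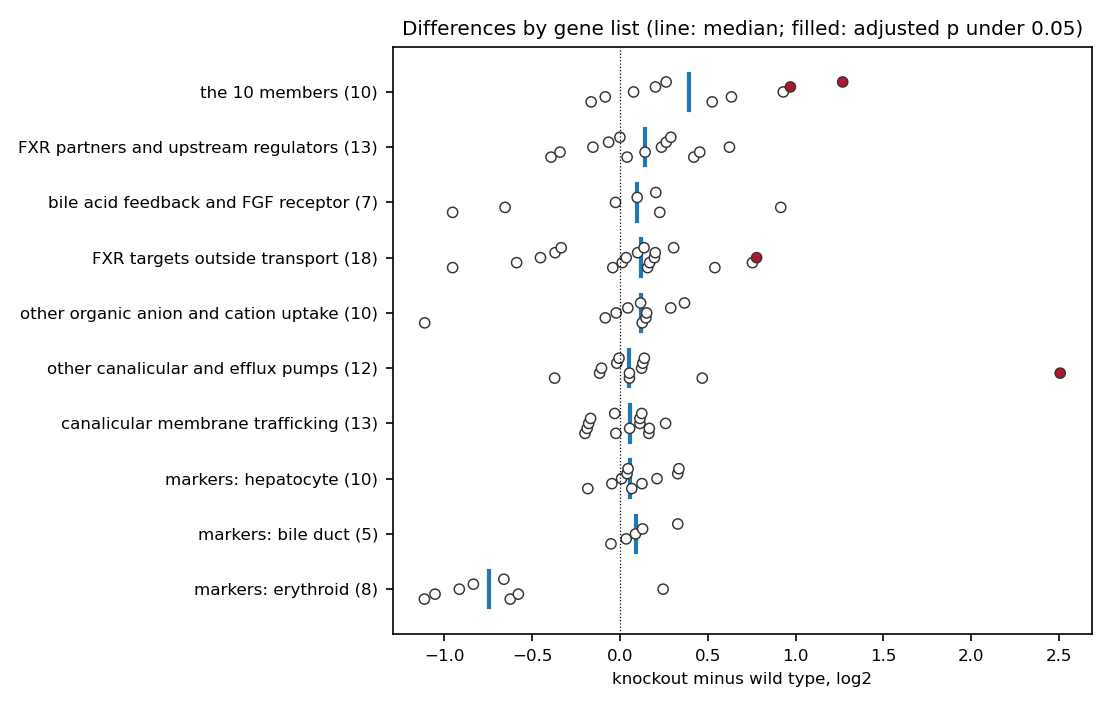
Difference of knockout from wild type livers in log2 units (x axis) for each measured gene of the 10 members and 9 other lists, with the number of genes in brackets, the median as a blue line and genes past an adjusted p of 0.05 filled. The median is 0.39 for the members and -0.75 for erythroid markers, and the 4 filled genes are Slc51b, Abcb11, Slc27a5 and Abcb1a.

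The genes whose pattern over the 8 livers lay nearest to Slc51b and to Abcb11 were found by the root mean square distance between values centred on each gene's mean, over 11813 other genes brighter than the median of all probe set means. Nearest to Slc51b were Fdft1 (squalene synthase), Fabp2 (a fatty acid binding protein) and Gstt2 (a glutathione S-transferase), at distances of 0.175, 0.183 and 0.249 log2 units. Their differences were 1.19, 1.14 and 1.29. Nearest to Abcb11 were Pigr (the polymeric immunoglobulin receptor), Slc23a2 (a vitamin C transporter) and Hrg (histidine-rich glycoprotein), at 0.106, 0.155 and 0.156. Their differences were 0.79, 0.87 and 0.77, with limma adjusted p of 0.0716, 0.0854 and 0.139. As in Abcb11, wild type 3 was the lowest liver in all 3. This likeness is a description, largely set by the difference between genotypes.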

How the data were processed

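Total RNA of 8 livers, 4 per genotype, was measured on Affymetrix arrays. The authors deposited log2 values, computed by RMA according to the submitters' processing notes. This method gives probe intensities the same distribution on all arrays before they are summarised by probe set. A shift in total mRNA is therefore invisible, and folds at low signal tend to shrink. Precision depends on the number of arrays and on the spread between livers. The 64 array controls were left out. The annotation pairs 34945 of 45037 probe sets with 1 gene and 932 with several, and does not list 9160. Symbols were updated through Entrez identifiers (34741 found in the GRCm38.p6 gene table). The probe set with the highest mean stood for its gene.

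Genotypes were compared with limma 3.58.1 in R 4.3.3 (lmFit, eBayes, two-sided, no covariate), with Benjamini-Hochberg adjustment over all probe sets and a threshold of 0.05. The fit was run on simulated data with independent noise and added differences. That run checks the computation, not whether these arrays meet the assumptions of the fit. Named were all members, Hsd17b4, the genes of each list that passed (at most 4) or else the one with the lowest p, and the 3 genes nearest to Slc51b and to Abcb11. The members and lists were chosen with earlier results of these data known. Nothing in the labels says that livers came from separate litters, so p-values measure the spread between these mice. Alternatives were a filter on low values, other normalization, centring or reference, other variance estimates, array weights, blocks, a covariate for sex, other probe sets, sets of arrays and leaving out each liver. The exact permutation test of export relative to uptake was added after the data were seen.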

Additional observations from a re-analysis of the deposited data

Results flagged for a closer look

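Among 60 sets of 4 livers examined for a single distant liver, 4 had one, and chance gives about 1 in 20. Abcc4 in wild type 4 was 4.87, against 5.35 to 5.41 in the other wild type livers. A probe set of Slco1b2 in wild type 1 was 8.71, against 9.88 to 9.98 in the others. C1qa, a macrophage marker, was 8.03 in wild type 1, against 7.52 to 7.59. Camp, a neutrophil granule gene, was 11.07 in knockout 4, against 10.53 to 10.61 in the other knockout livers.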

How the results depend on the processing

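Of 196 alternatives over the 10 members' differences, 172 kept direction and side of the threshold. Of the rest, 13 lost a call (12 of Abcb11, 1 of Slc51b within replicates 1 and 2), 4 gained one (Nr0b2) and 7 turned sign (Slco1b2). Members without a call had none to lose. Abcb11 kept its call in 7 alternatives and lost it in 12, and Slc51b kept its call in 18. The 2 calls among members were 1 with the replicate block, after renewed quantile normalization or relative to hepatocyte markers, 0 within replicates 1 and 2 alone, and 1 to 3 without single livers. The 343 calls over all probe sets were 914 with array weights, 15 with the replicate block, 527 with the Y-linked mean as covariate, 4 within replicates 1 and 2 alone, and 9 to 489 without single livers. The 1 exporter called relative to uptake in limma was 0 with trended and robust variance, with the Y-linked mean, within replicates 1 and 2 alone or against Slco1b2 alone. It was 2 with array weights or within replicates 3 and 4 alone, and 0 to 2 without single livers. By the added exact permutation test 2 exporters had an unadjusted p under 0.05, which is not a call at the adjusted threshold. Same-numbered livers deviated from their group means with correlations of -0.0039, 0.069, 0.174 and 0.259, and no label ties the numbers to litters or batches, so the numbers were not taken as pairs. With the replicate block the adjusted p was 0.0330 for Slc51b, 0.0539 for Abcb11 and 0.0524 for Slc27a5, whose list then had 0 calls. The cause of these changes was not tested, beyond the fewer samples where livers were left out.

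Slco1b2 was at -0.0025 with array weights, -0.00069 with the Y-linked mean, -0.39 within replicates 3 and 4, -0.016 relative to hepatocyte markers and -0.028 in a dim probe set, and between -0.16 and 0.29 without single livers. Relative to uptake, Abcc2 was at -0.018 with array weights and between -0.0068 and 0.83 without single livers. Abcc4 was at -0.19 within replicates 1 and 2 and between -0.055 and 0.33 without single livers. Epcam was at -0.027 within replicates 1 and 2. The targeted gene stayed between -4.81 and -4.47 without single livers. Signal limits Slc51a and 2 probe sets of Slco1b2, which are not shown to be above background.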

Other observations

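Markers of further cell types gave no call in limma. Of 8 macrophage markers 1 had an unadjusted p under 0.05, C1qa at 0.37 ± 0.16 (SE; adjusted p 0.386). Of 6 endothelial, 6 stellate, 6 neutrophil and 5 platelet markers 0 did, against 14.6% of all genes. Means were lower in the knockout for 5 endothelial, 4 stellate, all 6 neutrophil and 2 platelet markers. The median difference of the neutrophil markers was -0.24. The lowest p belonged to Lyve1 (0.61 ± 0.30; adjusted p 0.483), Lrat (-0.57 ± 0.32; adjusted p 0.558), Camp (-0.27 ± 0.15; adjusted p 0.563) and Itga2b (0.20 ± 0.10; adjusted p 0.517). The mean level of macrophage markers lay between 7.33 and 8.22 in knockout and between 7.25 and 7.82 in wild type livers.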
